A study of Mus musculus with 14 samples.

Results

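The comparison described here asked what GW3965, a synthetic agonist of the liver X receptors (LXRs), changed in mouse macrophages that had also received LPS (lipopolysaccharide, the bacterial ligand of Toll-like receptor 4). It rests on 4 of the 14 arrays of the series, chosen by title: 2 arrays of cells given GW3965 with LPS and 2 of cells given LPS. The mice were female, of strain C57BL/6 and 6 weeks old, and their peritoneal macrophages had been elicited with thioglycollate, an irritant that every group shares. Other groups used below, with 2 arrays each, were untreated cells, cells given poly(I:C) (double-stranded RNA made in vitro, which Toll-like receptor 3 binds), GW3965 with poly(I:C), and LPS with GW7845, an agonist of the nuclear receptor PPARγ. The last group, GW7845 with poly(I:C), enters only the fit over all arrays. No group received GW3965 without a stimulus. No dose or time is stated in the sources used here, and the series text speaks of biological replicates without saying whether each was 1 animal or a pool. The p-values therefore measure the spread between these samples.

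LXRs are nuclear receptors that bind oxysterols and pair with the retinoid X receptors on DNA. In macrophages they switch on genes that export cholesterol, such as the transporters ABCA1 and ABCG1, and genes that make fatty acids, such as the regulator SREBP-1c and its enzymes. They are also known for holding down inflammatory genes that Toll-like receptors switch on. LPS acts on macrophages both directly, through NF-κB, and indirectly, through type I interferon released by the cells, which induces chemokines and antiviral proteins.

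Values are log2 intensities, where 0 is the median of the array, each step of 1 is a doubling, and -3.87 is the floor to which the lowest values were raised. The arrays fell into 2 sets by the brightness of their dimmest probes, here set A and set B. The labels do not say what the sets are, and as a set follows the title number in 6 of the 7 groups, it cannot be told apart there from a difference between biological replicates. Each group had 1 array in each set, and in all 4 arrays compared title number 1 was in set A and number 2 in set B. Pairs of values below are given in the order set A, set B. The fit took the set as a block over all 14 arrays, and a call required a Benjamini-Hochberg adjusted p under 0.05 in limma. A gene is said to rise or fall where its probe was called. Standard errors (SE) are those of that fit, with n = 2 arrays in each group.

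Markers of macrophages were bright on these arrays, led by the lysozyme genes Lyz2 and Lyz1 and the LPS co-receptor Cd14. The summed intensity of 9 macrophage markers was 4077 and 2636 in LPS cells and 2622 and 2341 with GW3965, and only the Fc receptor Fcgr1 was below the array median on all 4 arrays. Markers of other cells summed to far less: 19.98 to 29.6 for 12 T and NK cell markers, 9 of which lay below the array median, and 22.4 to 49.9 for 8 neutrophil markers, of which 5 did. B cell markers summed to 49.1 to 65.5, markers of fibroblasts and mesothelial cells to 11.3 to 13.7, those of mast cells and eosinophils to 13.1 to 16.7, 4 dendritic cell markers to 7.61 to 22.0, and those of red cells and platelets to 25.7 to 72.5. No marker of any of these lists was at the floor on all 4 arrays. The neutrophil sum was lower with GW3965 in both sets, at 22.4 and 24.8 against 49.9 and 37.4 under LPS. Of the 7 neutrophil markers tested, however, 4 lay below 0 and 3 above. The sums of macrophages, of B cells and of red cells and platelets were also lower in both sets. No marker of any list was called, and the part of other cells in the results below was not tested. In a bulk sample, fewer cells of a type and less RNA per cell cannot be told apart.

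The array of GW3965 with LPS in set A stood apart, with the highest 10th percentile of intensity of all 14 arrays (0.271). In set A the difference between GW3965 with LPS and LPS depended on brightness: its median was 0.47 for probes with a mean level under -1 and -0.48 for probes above 5, while the corresponding medians of set B were 0.00 and -0.01. Single probes could also rest on this array, as with the chaperone gene Sdf2l1. It was at -2.21 there and 3.39 on the GW3965 array of set B, where LPS cells had 4.01 and 3.12. Its fitted difference of -2.97 did not pass (adjusted p = 0.44) and turned to 0.35 without the GW3965 array of set A. In the 14 other settings, quantile normalization among them, it stayed between -3.38 and -2.71, and why it was low on that array was not tested. Set values are therefore given for many results. Because of the dependence on brightness, medians after quantile normalization, which gives all arrays the same distribution of intensities, stand beside the main gene lists.

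Few probes were called with GW3965 under LPS. With 2 arrays in each group, a small number of calls does not show how many genes the agonist changed. Those that rose included 2 of 15 sterol export and lipoprotein genes tested and 3 of 11 lipogenic LXR targets, a list of fatty acid synthesis and related genes. Those that fell included 3 chemokine genes and 5 of 36 interferon-induced genes, with Cxcl10 counted among the chemokines. Of 9584 probes tested, limma called 39 (0.407%), of which 9 were higher (0.0939%) and 30 lower (0.313%), with 935 at an unadjusted p under 0.05 (9.76%). On all 39 probes both GW3965 arrays lay beyond both LPS arrays, an arrangement that 12.3% of all probes showed upward and 12.3% downward. The 39 were called on these same arrays, so their order follows largely from the choice and is not read as a result. Without the block limma called 3 probes (0.0313%), those of Eepd1, Cd5l and Slfn4. When 1 of the 4 arrays was left out, the array-set fit called 5 probes without LPS 1, 13 without LPS 2, 12 without GW3965 with LPS 1 and 107 without GW3965 with LPS 2. All 39 kept their direction each time, which their lying apart on the 4 arrays made likely beforehand.

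**Figure D1:**
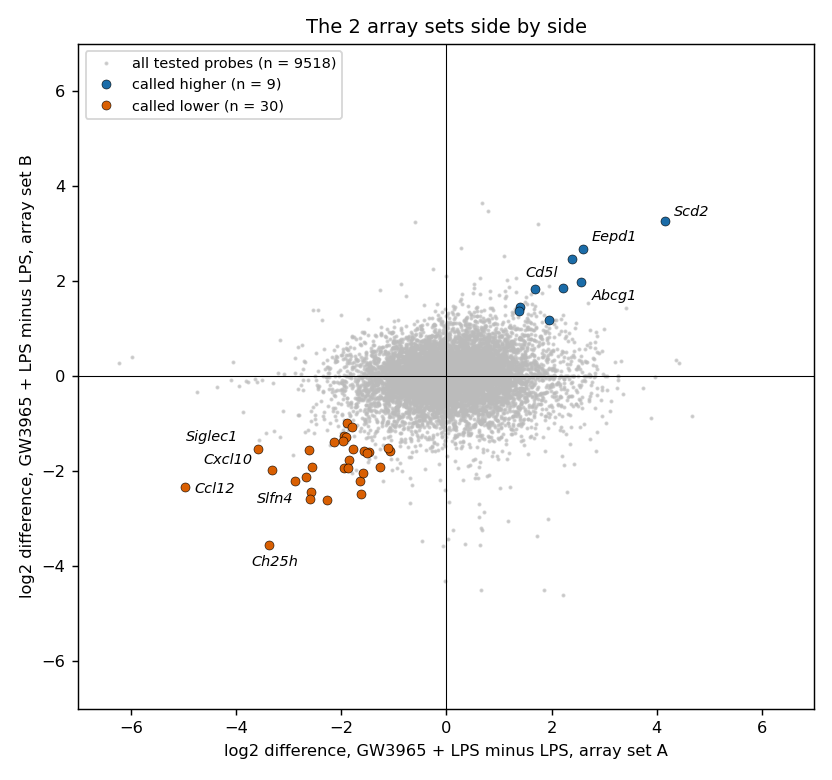
Difference between GW3965 with LPS and LPS (log2) in array set A (horizontal axis) and array set B (vertical axis) for 9518 probes measured on all 4 arrays. Blue points are the 9 probes called higher and orange points the 30 called lower in the fit over both sets. The called probes lie far from 0 in both sets, while the grey cloud is wider in set A (SD 0.93) than in set B (SD 0.55).

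Over all 9518 probes measured on the 4 arrays, the differences of the 2 sets correlated weakly, with Pearson's r = 0.11, and with r = 0.26 over the 4953 probes whose mean level lay above the array median. These r describe probes, which share arrays and are not independent replicates. A difference of at least 2-fold in both sets was reached by 81 probes upward (0.851%) and 91 downward (0.956%).

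Among genes of sterol export, Eepd1 and Abcg1 rose. Eepd1, an LXR target whose product keeps ABCA1 at the cell surface, was at 1.40 and 1.33 under LPS and 3.99 and 4.03 with GW3965. It rose by 2.64 (SE 0.26, adjusted p = 0.00035 in limma), or 6.24-fold, and both GW3965 arrays also lay above the untreated values of 3.44 and 3.65. Abcg1, which exports cholesterol to lipoprotein particles, had 3.12 and 3.35 under LPS and 5.68 and 5.35 with GW3965. The groups were well apart, and the rise was 2.28 (SE 0.33, adjusted p = 0.0070), or 4.85-fold. Its partner Abca1 was dim under LPS, at -1.57 and -0.26, and reached 1.12 and 1.29 with GW3965. Although all 4 arrays were in that order, its difference of 2.12 (SE 0.46) missed the threshold (adjusted p = 0.077).

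Other members of the sterol export and lipoprotein list leaned the same way without passing. The apolipoprotein gene Apoc1 differed by 1.81 (1.09 in set A and 2.54 in set B, adjusted p = 0.41), the phospholipid transfer protein gene Pltp by 1.36 (0.64 and 2.08, adjusted p = 0.24), the lipoprotein lipase gene Lpl by 1.00 (SE 0.26, adjusted p = 0.16) and Apoe, the apolipoprotein that macrophages secrete, by 0.69 (SE 0.40, adjusted p = 0.60). Apoe was already among the brightest genes, with 8.81 and 8.12 under LPS and 9.06 and 9.24 with GW3965. Of 15 genes of this list tested, 2 rose, none fell, 10 lay above 0, and the median difference was 0.69 (0.27 in set A, 1.12 in set B, and 0.75 after quantile normalization), where the median of all probes was 0.03. Nr1h3, which encodes LXRα itself, was measured on the arrays of set A only and was at 3.93 under LPS and 3.16 with GW3965. That difference of -0.76 (adjusted p = 0.56) rests on 1 array a group. The genes Nr1h2, Mylip and Lpcat3 were not analysed here.

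Of the genes of fatty acid synthesis, Scd2 had the largest rise, which was also the largest among the 9 called. This desaturase, which puts the double bond into newly made fatty acids, was at 0.78 and 1.22 under LPS and at 4.93 and 4.48 with GW3965. The rise was 3.71 (SE 0.63, adjusted p = 0.026), or 13.1-fold, and carried the gene past its untreated values of 1.95 and 2.72. Fasn, the fatty acid synthase, went from 1.84 and 1.92 to 4.06 and 3.77, a rise of 2.03 (SE 0.40, adjusted p = 0.045). Mid1ip1, which activates the enzyme that feeds that synthase, went from 4.34 and 3.73 to 6.02 and 5.57, a rise of 1.76 (SE 0.25, adjusted p = 0.0068). In each of these 3 genes both GW3965 arrays lay above both LPS arrays by more than the arrays of a group differed.

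Srebf1, the gene of SREBP-1, was at the floor on both LPS and both untreated arrays and at -0.86 and -2.87 with GW3965. Its difference of 2.00 is therefore a bound, and it did not pass (adjusted p = 0.22). The desaturase gene Fads2 was dim too, at -2.06 and -2.36 under LPS and -0.11 and -0.45 with GW3965 (difference 1.93, SE 0.47, adjusted p = 0.14). Scd1, the close relative of Scd2, differed by 0.68 (SE 0.37, adjusted p = 0.57), from 1.03 and 0.74 to 1.57 and 1.57. These genes belong to a list of lipogenic LXR targets, which holds genes of fatty acid synthesis, regulators and related genes and was chosen for LXR. Of its 11 genes tested, 3 rose and none fell, with a median of 0.98 (1.68 in set A, 0.99 in set B, and 0.99 after quantile normalization). Of these, 9 lay above 0 and 2 below. Pnpla3 went the other way, at -0.85 (-1.52 in set A and -0.19 in set B, adjusted p = 0.48), with its arrays apart. With poly(I:C) in place of LPS the median of this list was 0.32.

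Cd5l, a secreted scavenger receptor protein that protects macrophages from apoptosis and a known LXR target, was at 3.60 and 3.37 under LPS and 6.00 and 5.85 with GW3965. It rose by 2.44 (SE 0.24, adjusted p = 0.00035), or 5.42-fold, and ended above its untreated values of 4.58 and 3.96. Mertk, the receptor through which macrophages take up apoptotic cells, was at 1.77 and 1.76 under LPS and 1.5 and 1.87 with GW3965, with a difference of -0.08 (95% interval -1.0 to 0.84). Arg2, the mitochondrial arginase, differed by 0.80 (SE 0.30, adjusted p = 0.41). Taking the 3 lists of LXR targets as 1, 6 of 33 tested genes rose, none fell and 9 were at least 2-fold higher in both sets, and the median was 0.80. That median was 0.85 after quantile normalization. Genes of sterol synthesis, which answer to SREBP-2 rather than to LXR, had a median of 0.10 over 13 genes, with 0 called in limma and 7 above 0. Of these 13 genes, 1 lay apart upward and 2 downward, which is near the background of 12.3% each way.

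**Figure D2:**
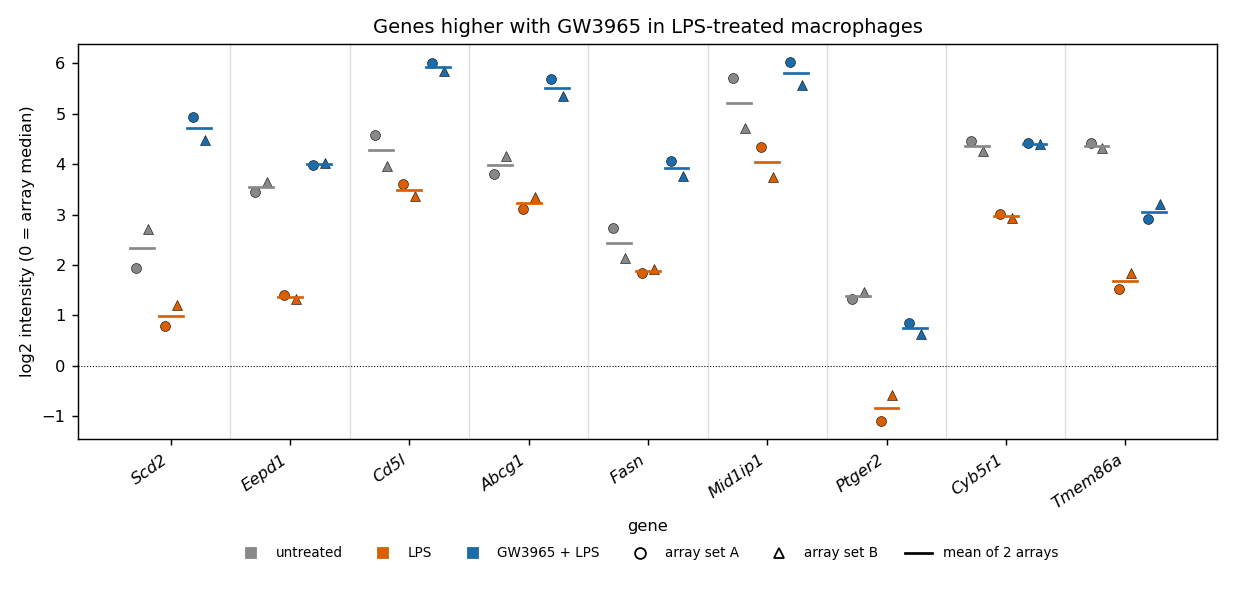
Log2 intensity of the 9 genes called higher with GW3965 (horizontal axis) on the untreated, LPS and GW3965 with LPS arrays, where 0 is the array median. Circles are array set A, triangles set B, and bars the mean of the 2 arrays of a group. In all 9 genes the GW3965 arrays lie above the LPS arrays, and in 7 their mean lies above the untreated mean. In limma the difference from untreated cells passed for Scd2, Cd5l, Abcg1 and Fasn. It did not pass for Mid1ip1 (0.58), Eepd1 (0.46) and Cyb5r1 (0.045).

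The remaining 3 genes that rose are less often named with LXR. Ptger2, a receptor for prostaglandin E2, was at -1.10 and -0.57 under LPS and 0.86 and 0.63 with GW3965, a rise of 1.58 (SE 0.31, adjusted p = 0.047). Cyb5r1, of the cytochrome b5 reductase family, rose by 1.43 (SE 0.26, adjusted p = 0.030), from 3.01 and 2.93 to 4.41 and 4.40. Tmem86a, which encodes a lysoplasmalogenase, rose by 1.37 (SE 0.27, adjusted p = 0.047), from 1.53 and 1.85 to 2.90 and 3.22. Without GW3965 all 3 were below their untreated values under LPS, and Tmem86a stayed below its untreated 4.41 and 4.31 with GW3965. Another prostanoid receptor gene, Ptgir, for prostacyclin, differed by 1.14 (SE 0.36, adjusted p = 0.29), and its 2 GW3965 arrays were above both LPS arrays. Of 19 genes of prostaglandin and leukotriene synthesis and reception, 1 rose, none fell and the median was -0.24.

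Among the 9 genes that rose, Eepd1 and Cd5l stayed called whichever of the 4 arrays was left out, with differences of 2.54 to 2.74 and 2.32 to 2.56. Scd2 (3.23 to 4.19), Abcg1 (1.98 to 2.58) and Mid1ip1 (1.69 to 1.82) stayed called only without GW3965 with LPS 2. Fasn (1.87 to 2.20), Ptger2 (1.25 to 1.90), Cyb5r1 (1.39 to 1.48) and Tmem86a (1.29 to 1.45) lost their call in every such fit, with adjusted p of 0.063 to 0.71.

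Of the 30 probes that fell, 26 were called higher under LPS than in untreated cells. That comparison shares the LPS arrays, which raises such a count, so the count is not read as a result. Under poly(I:C), a difference that shares no array with theirs, 27 were called higher than in untreated cells, where 10.6% of all tested probes were. Chemokines were among those with the largest decrease. Ccl12, a monocyte attractant, was at 4.70 and 3.0 under LPS and -0.28 and 0.67 with GW3965. It fell by 3.65 (SE 0.49, adjusted p = 0.0047 in limma), to 7.94% of its LPS level, by 4.97 in set A and 2.34 in set B. Cxcl10, which draws T cells and is a classical interferon target, was at 9.08 and 7.82 under LPS and 5.77 and 5.85 with GW3965. It fell by 2.64 (SE 0.38, adjusted p = 0.0066), to 16.0% of its LPS level, and remained far above the untreated -1.25 and -2.87. Cxcl11, a ligand of the same receptor, fell by 2.58 (SE 0.46, adjusted p = 0.028), from 3.14 and 2.77 to 0.55 and 0.19, and the sets gave nearly equal differences.

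The third ligand of that receptor, Cxcl9, was at 3.74 and 3.69 under LPS and 2.54 and 2.78 with GW3965, and its difference of -1.06 (SE 0.31) did not pass (adjusted p = 0.24). The monocyte attractants Ccl2 and Ccl7 had differences of -1.05 (-1.49 in set A and -0.60 in set B, SE 0.35, adjusted p = 0.34) and -1.24 (SE 0.36, adjusted p = 0.24). Ccl7 was at 7.71 and 7.91 under LPS and 6.52 and 6.62 with GW3965, so that its arrays did not overlap. The macrophage inflammatory protein gene Ccl4 differed by -1.5 (adjusted p = 0.25), but by -2.72 in set A and -0.29 in set B. Ccl19, a ligand of CCR7, differed by -1.39 (SE 0.38, adjusted p = 0.21). Of 14 CC chemokines 1 fell and 12 lay below 0, with a median of -0.67 (-1.08 in set A, -0.30 in set B, and -0.60 after quantile normalization). Of 12 CXC chemokines 2 fell and 8 lay below 0, with a median of -0.39 (-0.98 in set A, -0.27 in set B, and -0.34 after quantile normalization). Over all probes 47.7% lay below 0.

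Most interferon-induced genes leaned downward with GW3965, and 5 of them fell. Slfn4, a Schlafen gene of myeloid cells, was at 4.55 and 4.79 under LPS and 1.97 and 2.37 with GW3965. It fell by 2.5 (SE 0.29, adjusted p = 0.0016), to 17.7% of its LPS level, and was the one gene called lower also without the block (adjusted p = 0.028). Isg20, an exonuclease that degrades viral RNA, went from 7.40 and 6.85 to 4.74 and 4.72, a fall by 2.39 (SE 0.29, adjusted p = 0.0021). Gbp4, a guanylate-binding protein, fell by 1.94 (SE 0.27, adjusted p = 0.0063), from 4.84 and 4.65 to 2.88 and 2.73. All 3 genes remained above their untreated levels.

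Siglec1, the sialic acid lectin of macrophages, fell by 2.55 (SE 0.45, adjusted p = 0.028), more in set A (1.71 to -1.87) than in set B (2.14 to 0.62). Mx1, an antiviral GTPase, fell by 1.31 (SE 0.26, adjusted p = 0.047), from 5.90 and 6.17 to 4.78 and 4.67. The RNA-activated kinase Eif2ak2 (-1.35, adjusted p = 0.10), the GTPase Tgtp1 (-1.20, adjusted p = 0.064; the probe may not separate it from its near copy Tgtp2) and Slfn1 (-0.82, adjusted p = 0.25) did not pass. Of 36 interferon-induced genes tested in 2 lists, 5 fell, none rose, 33 lay below 0 and 27 had both GW3965 arrays below both LPS arrays. The median was -0.83, with -0.80 in set A and -0.99 in set B, and -0.65 after quantile normalization.

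An exception within the antiviral list, named after its values were seen, was the DNA sensor gene Ifi204 at 1.51 (adjusted p = 0.63). Its LPS arrays read 0.63 and 5.85 and its GW3965 arrays 4.53 and 4.97, and without LPS 1 the difference was -1.04. The genes of interferon signalling gave another median. Of 18 such genes, among them receptors and IRFs, 0 were called in limma, 9 lay below 0, 4 lay apart downward and 1 upward, and the median was -0.01, or 0.09 after quantile normalization. Irf7, the interferon-induced amplifier of the interferon response, was at 9.48 and 9.25 under LPS and 8.92 and 8.68 with GW3965, a difference of -0.56 (SE 0.24, adjusted p = 0.48). The gene Ifnb1 was not analysed here.

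**Figure D3:**
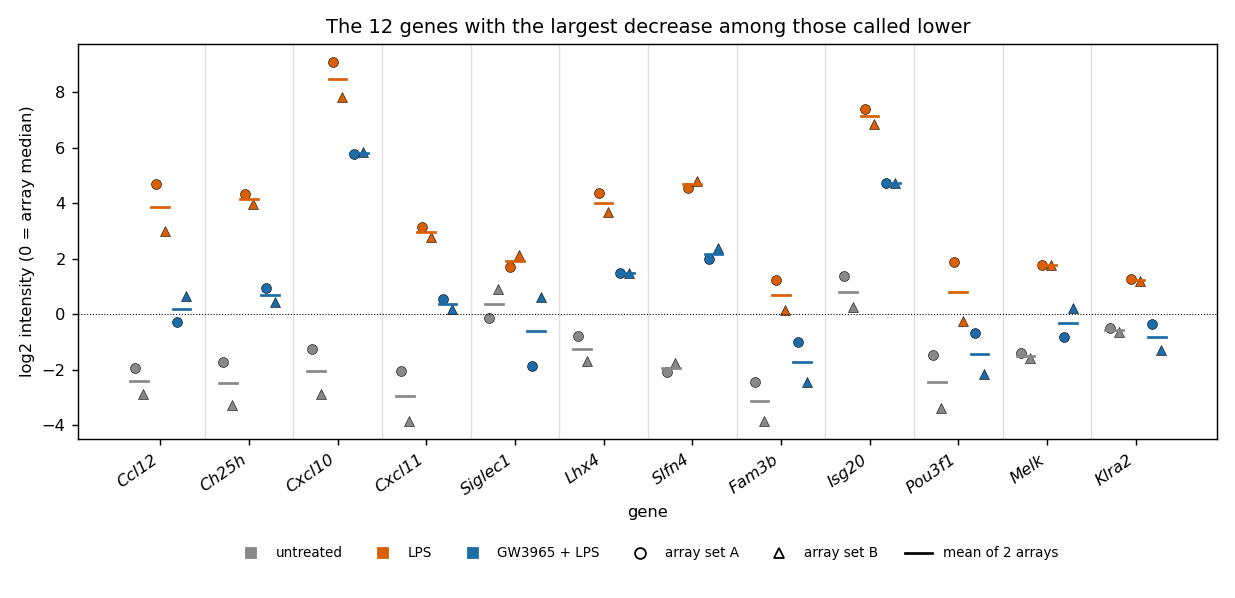
Log2 intensity of the 12 genes with the largest decrease among those called lower with GW3965, on the untreated, LPS and GW3965 with LPS arrays, where 0 is the array median. Circles are array set A, triangles set B, and bars the mean of the 2 arrays. The GW3965 arrays of each gene lie below its LPS arrays, and for most genes, Siglec1 and Klra2 excepted, above the untreated mean.

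Ch25h makes 25-hydroxycholesterol, an oxysterol that is itself a ligand of LXR and is induced by interferon. It was at 4.31 and 3.97 under LPS and 0.94 and 0.42 with GW3965, a fall by 3.46 (SE 0.65, adjusted p = 0.039), to 9.09% of its LPS level. The untreated arrays read -1.71 and -3.27. Cyp27a1, which makes 27-hydroxycholesterol, was at 0.80 and 1.31 under LPS and 0.93 and 0.83 with GW3965, a difference of -0.18 (95% interval -0.76 to 0.40).

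Several cytokine and receptor genes fell too. Tnfsf10, the death ligand TRAIL, went from 2.77 and 1.91 to 0.91 and 0.15, a fall by 1.81 (SE 0.28, adjusted p = 0.012). Il15, which sustains NK and memory T cells, fell by 1.44 (SE 0.27, adjusted p = 0.038), from 5.60 and 4.71 to 3.70 and 3.72. The gene of its receptor, Il15ra, fell by 1.43 (SE 0.29, adjusted p = 0.047), from 2.96 and 3.06 to 1.17 and 1.99. Ly86, which encodes the partner protein of the LPS receptor homologue CD180, fell by 1.60 (SE 0.32, adjusted p = 0.047). Klrk1, the receptor NKG2D, fell by 1.76 (SE 0.34, adjusted p = 0.045), from 5.29 and 4.20 to 3.15 and 2.81, and Klra2, of the Ly49 family, by 2.05 (SE 0.35, adjusted p = 0.024), from 1.26 and 1.20 to -0.37 and -1.28. Probes of the Ly49 family may read several near-identical members.

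Several of the best known inflammatory mediators did not pass. Il6 was at 9.13 and 8.17 under LPS and 7.65 and 7.29 with GW3965, a difference of -1.18 (SE 0.33, adjusted p = 0.22). Tnf stood at 6.78 and 7.22 under LPS and 6.91 and 7.24 with GW3965, a difference of 0.07 with a 95% interval of -0.64 to 0.78. Il1b was at 10.85 and 9.63 and then 10.36 and 9.69, a difference of -0.21 (95% interval -1.48 to 1.06). The interval of Tnf thus leaves room for a fall of less than 2-fold, and that of Il1b for one of more than 2-fold.

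The inducible nitric oxide synthase Nos2 was at 4.02 and 2.94 under LPS and 1.99 and 1.57 with GW3965. Its difference of -1.69 (SE 0.36) missed the threshold (adjusted p = 0.077). Ptgs2, the inducible cyclooxygenase, differed by -1.24 (SE 0.68, adjusted p = 0.58), and the gelatinase Mmp9, which was near the array median, by -0.37 (0.05 in set A and -0.80 in set B, adjusted p = 0.81). The anti-inflammatory cytokine Il10 differed by -1.37 (SE 0.31, adjusted p = 0.099), with 1.22 and 0.21 under LPS and -0.19 and -1.12 with GW3965. The endothelin gene Edn1 differed by -1.35 (adjusted p = 0.14) and Tlr3, the receptor of poly(I:C), by -1.60 (SE 0.35, adjusted p = 0.077), from 2.22 and 2.72 to 0.91 and 0.83. Il12b was not analysed here.

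Counted as lists, 2 of 19 inflammatory cytokines fell and 17 lay below 0 (median -0.64, with -0.88 in set A and -0.23 in set B, and -0.46 after quantile normalization). Of 21 genes of the Toll-like receptor pathway 1 fell, with a median of -0.31 (-0.22 after quantile normalization). Of 19 inflammatory effectors 0 were called in limma and 17 lay below 0, 7 with their arrays apart (median -0.38, with -0.70 in set A and -0.22 in set B, and -0.30 after quantile normalization). The 18 feedback genes of NF-κB had 0 calls in limma, 12 members below 0 and 2 of them apart, and a median of -0.08 that turned to 0.10 after quantile normalization.

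The genes of antigen presentation all leaned downward by a little. All 22 tested lay below 0, 11 of them with their arrays apart, with 0 called in limma, and the median was -0.61. That median was -0.94 in set A and -0.30 in set B, and -0.40 with 20 of 22 below 0 after quantile normalization. The MHC gene H2-T10, which is not in this list, fell by 1.32 (SE 0.24, adjusted p = 0.034 in limma), from 3.65 and 3.98 to 2.57 and 2.40. B2m, the light chain of MHC class I, was at 10.91 and 9.99 under LPS and 9.50 and 9.63 with GW3965 (-0.89, adjusted p = 0.37), and the costimulator Cd86 was at 5.83 and 6.42 and then 5.16 and 5.09 (-0.99, adjusted p = 0.24). The genes of this list are bright, and the brightest probes of set A had a median of -0.48, so their shift in set A was not tested apart from that dependence on brightness.

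**Figure D4:**
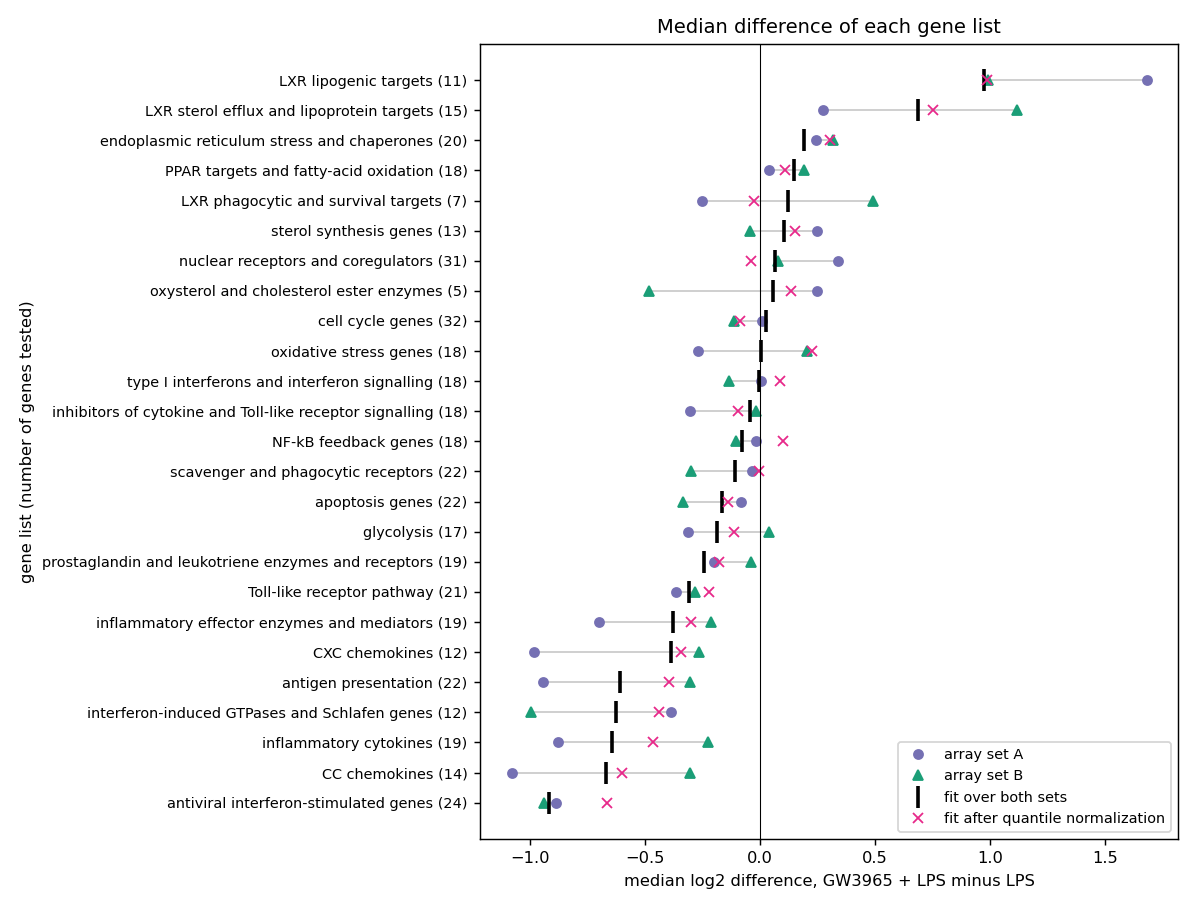
Median log2 difference, GW3965 with LPS minus LPS, of each of 25 gene lists, with the number of genes tested in brackets. Circles are array set A, triangles set B, vertical ticks the fit over both sets and crosses the fit after quantile normalization. The lists of lipogenic LXR targets and of LXR targets of sterol efflux lie at the top, with fitted medians of 0.98 and 0.69, and the antiviral genes at the bottom with -0.92.

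The other genes that fell belong to no list. Lhx4 and Pou3f1, both homeodomain transcription factors of development, fell by 2.54 (SE 0.30, adjusted p = 0.0017) and 2.24 (SE 0.36, adjusted p = 0.016). Lhx4 was at 4.37 and 3.67 under LPS, 1.49 and 1.47 with GW3965 and -0.78 and -1.70 in untreated cells. The cytokine-like gene Fam3b fell by 2.43 (adjusted p = 0.028), the mitotic kinase gene Melk by 2.09 (adjusted p = 0.045), Timeless, of the replication fork, by 1.81 (adjusted p = 0.0072) and the kinase gene Stk39 by 1.66 (adjusted p = 0.045). Abcb1a, the drug efflux pump, fell by 1.92 (adjusted p = 0.034), Kdr, the VEGF receptor, by 1.90 (adjusted p = 0.0041) and Pla2g2d, a secreted phospholipase, by 1.67 (adjusted p = 0.034).

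Under LPS those last 3 differed from untreated cells by less than 2-fold, at 0.96, 0.84 and -0.24, and the rise of Kdr passed (adjusted p = 0.032). Kdr was at 2.06 and 1.78 in untreated cells, 2.83 and 2.68 under LPS and 0.96 and 0.76 with GW3965, so that it ended below its untreated level. The remaining calls, named for completeness outside the rule, were Xdh, Vcan, Cenpf, H2-T10, Slc28a2 and 1 probe without a symbol. Xdh, the xanthine dehydrogenase, likewise went below its untreated level, from 4.65 and 4.79 under LPS to 3.08 and 3.23 with GW3965 (adjusted p = 0.028). In all, the mean with GW3965 stayed above the untreated mean for 22 of the 30 lowered probes.

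Of the 29 named genes that fell, only Slfn4 stayed called whichever of the 4 arrays was left out (-2.58 to -2.42). Isg20 (-2.66 to -2.13) and Lhx4 (-2.77 to -2.31) lost their call only without LPS 1 (adjusted p = 0.058 for each), and Ccl12 (-4.71 to -2.59) likewise (adjusted p = 0.089). Cxcl10 (-3.06 to -2.23) and Pou3f1 (-2.63 to -1.84) lost it without either array of number 1, and Kdr (-1.92 to -1.87) and Timeless (-1.96 to -1.67) without either LPS array. Siglec1 (-3.39 to -1.71), Melk, Gbp4, Tnfsf10, Pla2g2d, Il15, Il15ra, Xdh and Cenpf stayed called only without GW3965 with LPS 2, and Klra2 only without GW3965 with LPS 1. Ch25h (-3.67 to -3.25), Cxcl11 (-2.65 to -2.51), Fam3b, Abcb1a, Klrk1, Stk39, Ly86, Mx1, Vcan, H2-T10 and Slc28a2 lost their call in each of the 4 fits. Of all 38 named genes called, 3 kept their call in 4 such fits, 3 in 3, 4 in 2, 13 in 1 and 15 in 0.

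To ask whether the decrease followed inducibility without using the LPS arrays for the choice, probes were grouped by their response to poly(I:C), whose arrays do not enter the comparison. The 910 probes induced at least 2-fold and called under poly(I:C) (where limma called 10.6% of probes higher and 8.04% lower) had a median difference with GW3965 under LPS of -0.38, with -0.41 in set A and -0.32 in set B, and 76.5% lay below 0. They held 26 of the 30 probes that fell. The 668 probes lowered by poly(I:C) had a median of 0.23 and held 4 of the 9 that rose, and the 7940 other probes had a median of 0.05. The median was -0.28 for the 468 probes induced 2- to 4-fold, -0.45 for the 335 induced 4- to 16-fold and -0.64 for the 107 induced at least 16-fold. After quantile normalization the induced probes had a median of -0.27. All these probes share the same 4 arrays, so the medians carry no p-value. The untreated arrays enter the grouping and the shared spread, but not the differences with GW3965.

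**Figure D5:**
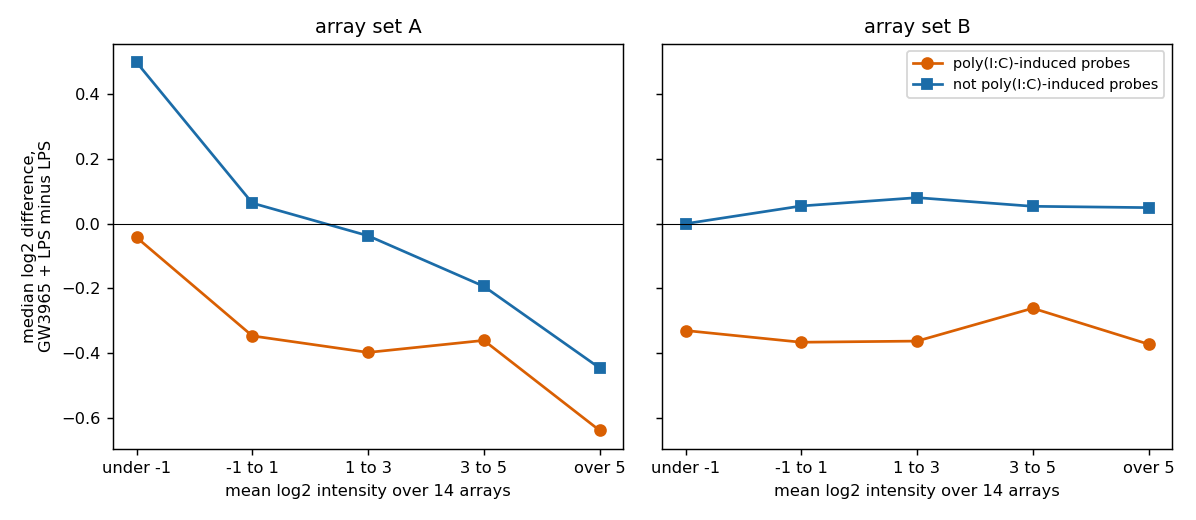
Median log2 difference, GW3965 with LPS minus LPS, by mean log2 intensity over the 14 arrays, for probes induced by poly(I:C) (orange circles) and all others (blue squares), in array set A (left) and set B (right). In set A the other probes run from 0.50 for the dimmest to -0.45 for the brightest, while in set B they stay between 0.00 and 0.08. The induced probes lie below the others at each of the 5 levels in both sets.

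Promoters of the interferon-induced genes carry a known recognition sequence, the interferon-stimulated response element (ISRE), searched here as a pair of GAAA half-sites with 2 bases between them, on both strands from 250 bases before to 50 after the start of each gene in RefSeq (GRCm38.p6). Promoters are shown for 3 genes that were at least 2-fold lower in both sets, Cxcl10, Tgtp1 and Ccl19, because they hold the element. Capitals mark the motifs searched. In Cxcl10 (chr5:92348890-92349139, minus strand) these are the ISRE and an NF-κB site (GGGANTT, then any base and CC) that begin 213 and 103 bases before the start. In Tgtp1 (chr11:48992247-48992396, minus strand) they are a GAS element, TTCCNGGAA, at 88 and the ISRE at 77. In Ccl19 (chr4:42756366-42756615, minus strand) they are the ISRE at 208, a relaxed direct repeat of the LXR type (GNTCA at each end with 5 bases between) at 159, and a sterol regulatory element, TCACNCCAC, at 100.
Cxcl10: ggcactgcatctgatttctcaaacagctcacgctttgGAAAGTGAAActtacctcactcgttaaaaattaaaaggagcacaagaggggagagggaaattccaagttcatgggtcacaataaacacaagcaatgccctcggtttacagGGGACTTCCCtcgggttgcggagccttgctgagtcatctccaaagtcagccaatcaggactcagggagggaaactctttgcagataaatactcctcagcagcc
Tgtp1: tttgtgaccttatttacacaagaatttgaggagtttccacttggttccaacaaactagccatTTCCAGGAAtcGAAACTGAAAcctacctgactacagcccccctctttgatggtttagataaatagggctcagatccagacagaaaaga
Ccl19: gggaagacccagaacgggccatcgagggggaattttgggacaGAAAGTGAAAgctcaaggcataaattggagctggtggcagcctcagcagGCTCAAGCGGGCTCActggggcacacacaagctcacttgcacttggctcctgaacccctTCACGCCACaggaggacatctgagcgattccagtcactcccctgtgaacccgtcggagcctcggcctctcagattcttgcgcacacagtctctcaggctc

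Of the interferon-induced genes tested, 27 matched a promoter by symbol and 14 of these held the ISRE (51.9%). Among the genes called lower it was 1 of 20 promoters (5%), that of Cxcl10, which is near the share of all tested genes. Among the genes at least 2-fold lower in both sets it was 8 of 62 (12.9%), among all tested genes 277 of 6780 (4.09%) and among all 32851 promoters 3.44%. None of the 59 promoters of genes at least 2-fold higher in both sets held it. The 277 genes with the element had a median difference of -0.08 and 57.4% of them lay below 0, where all 6780 genes had 0.02 and 48.2%. The NF-κB letters were in 3 of 62 promoters of genes at least 2-fold lower (4.84%), against 1.56% of all tested. Among the genes called lower they were in 1 of 20. These counts are too small to be read as a difference, and the genes that hold the letters had a median of 0.04. The relaxed LXR repeat was in none of the 22 promoters of LXR targets and in 0.634% of all tested genes. A match describes these letters in this window and no more.

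The arrays of GW3965 with poly(I:C) and of poly(I:C) alone share no array with the comparison under LPS. All 9 probes that rose under LPS were higher with GW3965 in both sets under poly(I:C) too, where 18.5% of all probes were. Of the 30 that fell, 30 had a difference below 0 under poly(I:C) and 28 were lower in both sets, where 29.5% of all probes were. Limma called 7 probes under poly(I:C) (0.073%), of which 6 were among the 9: Scd2 at 3.95, Eepd1 at 2.57, Abcg1 at 2.40, Cd5l at 1.91, Mid1ip1 at 1.74 and Tmem86a at 1.64, with adjusted p of 0.00096 to 0.044. The seventh was a lowered probe without a symbol. Abca1 differed there by 2.5 (adjusted p = 0.094).

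None of the 30 lowered probes was called under poly(I:C). Slfn4 was at -1.09 there (adjusted p = 0.43), Cxcl10 at -1.05, Isg20 at -1.38, Gbp4 at -0.62, Ccl12 at -1.74 and Ch25h at -2.93 (adjusted p = 0.21). The median over the 30 was -1.85 under LPS and -0.96 under poly(I:C), and over the 9 raised probes 2.03 and 1.75. Since the probes were picked by their value under LPS, a larger median there follows in part from the choice. The test of the difference between the stimuli called 0 probes in limma, with 274 at an unadjusted p under 0.05 (2.86%), 17 of them among the 30. It contains the difference under LPS by which the 30 were picked, so that count is raised by the choice and is not read as a result. Without GW3965 with LPS 2 that test called 14 probes and without poly(I:C) 2 it called 1. For the interferon-induced genes the median was -0.83 under LPS and -0.16 under poly(I:C), where the median of all probes was -0.10, and for the inflammatory cytokines it was -0.64 and -0.75. The 3 lists of LXR targets together had medians of 0.80 and 0.16.

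Against GW7845, the PPARγ agonist, the direct comparison under LPS called 6 probes in limma (0.0626%). Cd5l was higher with GW3965 by 2.56 (SE 0.24, adjusted p = 0.00021), Eepd1 by 2.06 (SE 0.26, adjusted p = 0.0046) and Mid1ip1 by 1.63 (SE 0.25, adjusted p = 0.029). Slfn4 was lower by 2.23 (SE 0.29, adjusted p = 0.0047), with 4.52 and 4.28 on the GW7845 arrays against 1.97 and 2.37 with GW3965. The other 2 probes had no symbol, and 1 of them was lower with GW3965 by 4.71. Abcg1 (1.91, adjusted p = 0.054) and Siglec1 (-2.43, adjusted p = 0.067) did not pass. Without a block 1 probe was called (0.0104%), and leaving out 1 array gave 2 to 48. The chemokines Cxcl10 and Ccl12 differed between the agonists by -1.29 (adjusted p = 0.50) and -1.23 (adjusted p = 0.83). Il6, at 0.26 (adjusted p = 0.96), Ccl2, at 0.65 (adjusted p = 0.88), and Nos2, at -0.30 (adjusted p = 0.96), did not pass either.

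Set beside their own LPS controls, which both agonists share, GW3965 and GW7845 gave 2.64 and 0.58 for Eepd1, 2.44 and -0.12 for Cd5l, 3.71 and 1.38 for Scd2, -2.5 and -0.27 for Slfn4, -3.46 and -0.34 for Ch25h, and -1.18 and -1.44 for Il6. They gave -3.65 and -2.42 for Ccl12, -2.64 and -1.35 for Cxcl10, -2.24 and -1.99 for Pou3f1 and -1.44 and -1.31 for Il15. Over the 30 lowered probes the medians were -1.85 and -0.88, and over the 9 raised ones 2.03 and 0.45, and the probes were chosen by the first value. GW7845 with LPS against LPS had 0 calls in limma, with 571 probes at an unadjusted p under 0.05 (5.96%). Pparg, the gene of the receptor of GW7845, was at 4.30 and 4.47 in untreated cells, 0.04 and 0.42 under LPS and 1.36 and 1.29 with GW3965, a difference of 1.10 with GW3965 (SE 0.33, adjusted p = 0.27). Its target Fabp4 differed by -0.89 (adjusted p = 0.42).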

How the data were processed

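RNA of 14 samples was read on 1-colour arrays, 2 per group. The deposited table holds 1 intensity for each of 10012 probes and array, which the authors had scaled to an array median of 1, as the values show. No scanner software, background or scaling method is named in the sources used here. Symbols are those of the platform's annotation (8983 probes with 1 symbol, 1 with several, 1028 with none). Intensities were raised to the 5th percentile of positive values (0.0686) before log2, and 9584 probes with at least 2 arrays above their own 20th percentile were tested.

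Group means of all 14 arrays were fitted in limma 3.58.1 (R 4.3.3) with an intensity trend and the array set as a block (6 residual degrees of freedom). Set A had a 10th percentile of intensity of 0.137 to 0.271 and set B of 0.0549 to 0.0833, with 7 arrays each. The pairing comes from these values, not from the labels: differences between the 2 arrays of a group, taken by set, correlated at 0.35 to 0.67 in all pairs of groups, and by title number they were negative for GW7845 with LPS. P-values are two-sided and adjusted by Benjamini-Hochberg over all tested probes. Where a gene of a list had several probes the brightest was used. Named genes were all probes with a symbol called higher, the 20 called lower with the largest difference, probes called without the block, 27 genes named whatever their value, up to 4 genes of a list with the smallest p and up to 6 calls of the other contrasts. The members and lists were chosen with earlier results of these data known. The number of arrays limits the precision. The fit was tested on simulated data.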

Additional observations from a re-analysis of the deposited data

How the results depend on the processing

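Of the results named, 39 probes called with GW3965 under LPS became 3 without a block, 13 with the replicate block (the title number in place of the array set), 6 without the intensity trend and 71 with the 4 arrays alone. Leaving out 1 array gave 5 to 107. All 39 kept their direction in every setting, but this says little about stability. They were chosen for large differences, and a change of block or trend alters the spread rather than the difference. The title number pairs the arrays of every group but GW7845 with LPS as the array set does, so the replicate block gives the same differences with a larger spread. Both blocks together, chosen after seeing the data, gave 26. Quantile normalization gave 35, of which 33 were shared. The 6 calls against GW7845 became 1 without a block, 17 without the array GW7845 with poly(I:C) 1, 15 after quantile normalization, 12 with both blocks and 2 to 48 when 1 array was left out. The 0 calls of the difference between stimuli became 14 at most with 1 array left out. The median of the interferon-induced lists was -0.65 after quantile normalization and -0.99 within set B. That of the Toll-like receptor pathway was -0.22 after quantile normalization and -0.38 to -0.20 with 1 array left out. That of the lipogenic LXR targets was 1.68 within set A and 1.07 to 1.72 with 1 array left out, and that of CXC chemokines was -0.98 within set A. Of 80 genes, 6 uncalled ones changed sign. Il1b went to 0.12 after quantile normalization and ranged from -0.55 to 0.12 with 1 array left out. In the same fits Mertk ranged from -0.43 to 0.27, Tnf from -0.030 to 0.18, Cyp27a1 from -0.39 to 0.031, Sdf2l1 from -6.29 to 0.35 and Ifi204 from -1.04 to 4.06. Why these values moved was not tested. Probes near the floor carry no order, and without detection calls signal over background is known only from the level.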

Other observations

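Stress genes outside the lists above were examined as well. Asns, the asparagine synthetase of the amino acid response, was at 2.90 and 3.27 under LPS and 4.45 and 4.32 with GW3965, and Gclm, a subunit of the enzyme that makes glutathione, at 3.94 and 3.74 and then 5.42 and 4.61. Their differences of 1.30 (SE 0.34, adjusted p = 0.17 in limma) and 1.18 (SE 0.29, adjusted p = 0.13) did not pass, although the arrays of the groups did not overlap. Of 20 genes of endoplasmic reticulum stress and chaperones 0 were called in limma, 13 lay above 0, 4 of the 20 lay apart upward and 1 downward, and the median was 0.19. Lists of cell cycle genes (32 genes, median 0.02), glycolysis (17 genes, median -0.19), apoptosis (22 genes, median -0.16), oxidative stress genes (18 genes, median 0.01), nuclear receptors and coregulators (31 genes, median 0.07), PPAR targets and fatty acid oxidation (18 genes, median 0.15), scavenger and phagocytic receptors (22 genes, median -0.11) and inhibitors of cytokine signalling (18 genes, median -0.04) held no called gene in limma either. The cell cycle list does not hold Melk, Timeless or Cenpf, which fell, so it does not speak for them.

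Across the 9 probes that rose with GW3965 under LPS, poly(I:C) against untreated cells gave a difference below 0 for all 9, and 5 of these passed. Across the 30 that fell it gave one above 0 for 29, of which 27 passed. The spread of each probe is shared by these contrasts, so an overlap of calls is in part built in. The differences of GW3965 under LPS and under poly(I:C), which share no array, correlated at r = 0.35 over 9518 probes and at 0.66 over the 4953 above the array median. These r describe probes that share arrays within each comparison.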
